A study of Mus musculus with 9 samples.

Results

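Open chromatin around 6 genes that encode myeloid transcription factors was described across blood stem and progenitor cells with and without retinoid X receptors. The genes were Spi1, Cebpa, Cebpb, Cebpe, Irf8 and Gfi1, which is 6 of 20665 protein-coding genes in the reference table. They were chosen by name as myeloid regulators and not by a cut on measured values, although earlier results of these data were known. Every deposited peak inside each gene or within 100 kb of its ends was taken (mm10), and peaks sharing 1 bp or more between libraries were joined into regions. This gave 194 of the 117465 merged regions of the series: 29 for Spi1, 33 for Cebpa, 39 for Cebpb, 31 for Cebpe, 41 for Irf8 and 21 for Gfi1. A region in such a window need not act on the gene that defines the window.

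The assay was ATAC-seq, which marks open chromatin through insertion of adapters by the enzyme Tn5. LT-HSCs (long-term haematopoietic stem cells) and their early descendants, MPPs (multipotent progenitors), were sorted from bone marrow of C57BL/6 mice that were wild-type (WT) or carried the genotype RXRa/RXRb-KO (KO). RXRα and RXRβ are nuclear receptors that pair with each other or with partners such as retinoic acid and liver X receptors. There were 3 LT-HSC KO libraries (numbered 1, 2 and 4), 2 LT-HSC WT libraries (numbered 2 and 3), and 2 MPP libraries of each genotype (numbered 1 and 2). The labels describe lineage-negative cells from animals written as pulled, read here as pooled, and do not say that libraries of a group came from separate pools. The sources used here do not give the age of the mice, the deleted segments or the cells in which deletion was driven.

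These factors act as a network. PU.1, the ETS factor encoded by Spi1, and C/EBPα, encoded by Cebpa, bind enhancers of many myeloid genes and set up the granulocyte and monocyte programme. IRF8 pairs with PU.1 and favours monocytes and dendritic cells, C/EBPβ drives granulocyte production under stress, and C/EBPε acts late in granulocyte maturation. GFI1 is a zinc-finger repressor that favours granulocytes over monocytes and also restrains the proliferation of stem cells. Several of these genes have well-studied enhancers far from their starts, named by distance in kb.

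Promoter sequence from RefSeq (GRCm38.p6, the assembly of mm10) was found for 4 of the 6 genes, Cebpa, Cebpb, Irf8 and Gfi1, and not for Spi1 and Cebpe. The 250 bases before the start are shown because each lay wholly under a start region, and each start region either had peaks in more of the MPP libraries or ranked higher in them. Capitals mark a TATA box (TATAAA) or a CCAAT box, which reads ATTGG where it lies on the other strand.
Cebpa (chr7:35119043-35119292, plus strand): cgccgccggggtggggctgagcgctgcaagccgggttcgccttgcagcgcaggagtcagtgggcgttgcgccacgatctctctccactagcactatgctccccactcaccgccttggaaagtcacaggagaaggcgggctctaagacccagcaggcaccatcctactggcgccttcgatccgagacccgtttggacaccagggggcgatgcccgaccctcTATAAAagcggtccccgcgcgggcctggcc
Cebpb (chr2:167688665-167688914, plus strand): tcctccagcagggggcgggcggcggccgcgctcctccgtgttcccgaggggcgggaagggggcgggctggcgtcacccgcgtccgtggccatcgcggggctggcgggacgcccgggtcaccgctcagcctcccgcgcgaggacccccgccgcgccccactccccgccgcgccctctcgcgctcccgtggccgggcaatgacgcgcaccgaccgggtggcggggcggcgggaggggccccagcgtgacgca
Irf8 (chr8:120736108-120736357, plus strand): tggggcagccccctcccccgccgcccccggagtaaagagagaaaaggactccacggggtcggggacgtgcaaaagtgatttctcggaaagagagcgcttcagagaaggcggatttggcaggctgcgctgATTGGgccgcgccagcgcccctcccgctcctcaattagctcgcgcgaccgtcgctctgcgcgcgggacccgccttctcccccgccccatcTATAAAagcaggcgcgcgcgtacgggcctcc
Gfi1 (chr5:107725806-107726055, minus strand): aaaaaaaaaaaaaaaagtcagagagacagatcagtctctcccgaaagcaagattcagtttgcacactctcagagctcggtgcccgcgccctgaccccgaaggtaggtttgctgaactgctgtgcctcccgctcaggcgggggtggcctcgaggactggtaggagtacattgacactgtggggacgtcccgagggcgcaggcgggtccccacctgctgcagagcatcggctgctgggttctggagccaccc

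TATAAA was found in the windows of Cebpa (at −30 from the start) and Irf8 (at −31), and 12.4% of 32851 mouse promoter windows of this length held it on either strand. CCAAT was found in the Irf8 window alone, at −121 (33.8% of all windows). The GC box GGGCGG was found 5 times in the Cebpb window, where the matches at −238 and −234 overlap each other, and 2 times in the Irf8 window (32.7% of all windows). None of the 4 windows held the nuclear receptor half-site AGGTCA (14.02% of all windows), the ETS core GAGGAA (23.3%), the RUNX core TGTGGT (14.05%), an IRF pair (TTTC and TTTC, 2 bases apart; 2.98%) or a C/EBP-like pair (TTGC and CAAT, 2 bases apart; 0.408%) on either strand. No motif searched was found in the Gfi1 window. The share of G and C was 66.4% for Cebpa, 81.6% for Cebpb, 67.2% for Irf8 and 59.2% for Gfi1. A letter match describes the window and is not evidence of binding. Irf8 and Gfi1 each have another RefSeq start. No region lay over the other Irf8 window, and the region under the other Gfi1 window was held by LT-HSC KO 4 alone.

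The peak lists differed in length. The LT-HSC lists held 22690 (KO 1), 43126 (KO 2), 71586 (KO 4), 50023 (WT 2) and 22878 (WT 3) peaks, and the MPP lists 78189 to 86353, so every MPP list was longer than every LT-HSC list. Whether a shorter list reflects fewer reads or fewer open regions cannot be told apart, because read counts were not used here and depth is unknown. Over 5 LT-HSC markers the LT-HSC libraries held 5 to 57 peaks and the MPP libraries 31 to 44, so peak numbers did not separate the cell types. Of these markers Slamf1 had 1 region called for LT-HSCs, Mecom had 2 called for MPPs, and Procr, Hlf and Fgd5 had none called. The MPP gene Flt3 held 11 peaks in each MPP library and 2 to 8 in the LT-HSC libraries. Of 4 mature myeloid markers, Ly6g had no peak in any library, and Itgam had 9 or 10 peaks in the MPP libraries and 0 to 4 in the LT-HSC libraries. Over the 4 mature myeloid markers together the LT-HSC libraries held 1 to 9 peaks and the MPP libraries 14 to 17. Of 3 T cell markers, Cd3g had no peak in any library, and together they held 0 to 3 peaks in the LT-HSC libraries and 4 to 6 in the MPP libraries. The part of other cells in the results was not tested. Within 1 kb of Rxra there were 21 regions, of which LT-HSC libraries held 0, 3 and 14 in KO and 8 and 3 in WT, and MPP libraries 14 and 16 in KO and 14 and 13 in WT. Within 1 kb of Rxrb, LT-HSC libraries held 1 to 3 of 4 regions and each MPP library 3. A peak outside a deleted segment does not check the genotype label.

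Each region has 2 measures: whether a library's list held a peak there, and how strong that peak was. Strength is given as a percentile of the deposited −log10 q-value among the regions held by that library, where 100 is the strongest. Percentiles from lists of different lengths are not on one scale, so they are compared between cell types by a test only over regions that every library held. Values are always given in the order KO 1, KO 2, KO 4, WT 2 and WT 3 for LT-HSCs, and KO 1, KO 2, WT 1 and WT 2 for MPPs. Distances run from the start of the gene in the reference table to the middle of the region, with positive values downstream.

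The myeloid loci were held far more fully by MPPs than by LT-HSCs. MPP libraries held 78.7% ± 4.86 of the 194 regions (SD, n = 4) and LT-HSC libraries 34.6% ± 16.5 (SD, n = 5). Over all regions of the series these shares were 68.9% ± 3.29 and 34.8% ± 17.1, so the LT-HSC share was close to that of all regions and the MPP share was higher, with Gfi1 (61.9% ± 6.73) as the exception. Of the 194 regions, 28 (14.4%) were held by all 9 libraries, against 11.8% of all regions. A further 40 (20.6%, against 14.1% of all regions) separated the cell types fully, with a peak in each MPP library and in none of the LT-HSC libraries, and 0 showed the reverse. Of the 23 regions within 1 kb of the end of another protein-coding gene, 11 (47.8%) were held by all 9 libraries. Among the 16 regions held by LT-HSC libraries alone, 14 were held by LT-HSC KO 4 alone, the longest LT-HSC list. Over all regions of the series, 17340 were held by LT-HSC libraries alone, and 7166 of these by LT-HSC KO 4 alone. Irf8 had the lowest mean LT-HSC share, 24.9% ± 15.6, and Cebpb the highest, 44.1% ± 16.9, and Cebpb had the higher share in each of the 5 LT-HSC libraries.

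**Figure D1:**
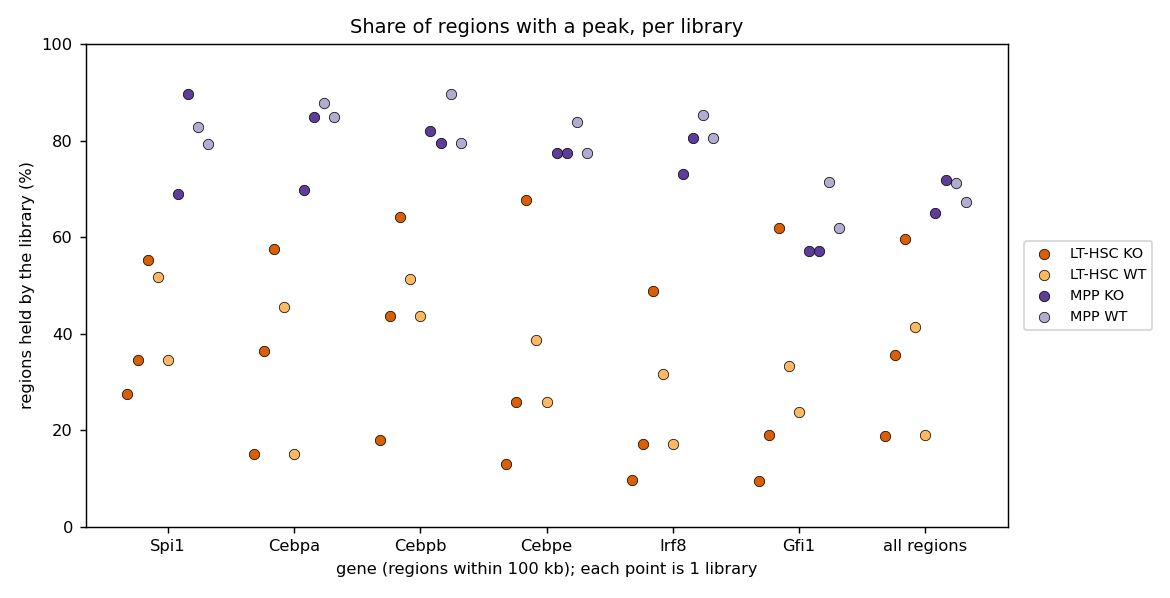
Share of regions with a peak (%, y axis) for each gene and for all regions of the series; each point is 1 library, coloured by group. At Spi1, Cebpa, Cebpb, Cebpe and Irf8 every MPP library lies above every LT-HSC library, while at Gfi1 LT-HSC KO 4 (61.9%) lies above both MPP KO libraries (57.1%) and level with MPP WT 2.

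Presence was tested by cell type with Fisher's exact test over all regions held by 3 to 6 libraries. Of the 93 myeloid regions that could be tested, 40 (43.0%) were called for MPPs, where percent called over all tested regions was 31.9. For LT-HSCs 0 were called, against 0.442 percent of all. At unadjusted p under 0.05 there were 64 of the 93 (68.8%), against 60.6 percent of all tested. All 64 were in the MPP direction, which held 58.3 percent of all tested, and 0 were in the LT-HSC direction, which held 2.26 percent. The calls numbered 7 of 12 at Spi1, 7 of 18 at Cebpa, 6 of 15 at Cebpb, 7 of 15 at Cebpe, 11 of 26 at Irf8 and 2 of 7 at Gfi1. By position, 20 of 87 upstream regions (23.0%), 16 of 85 downstream (18.8%) and 4 of 22 within the gene itself (18.2%) were called. These shares are of all regions there, tested or not, against 14.1% of all regions of the series. Complete separation of 5 against 4 libraries gives p = 0.00794 by the exact test and an adjusted p of 0.0245, so all 40 carry that value. Without any 1 of the LT-HSC libraries, 0 regions were called. Fisher's exact test of 4 against 4 libraries cannot go below p = 0.0286, and the adjusted p then depends on how many of all regions reach it. In these fits 40 to 53 regions had unadjusted p under 0.05, and the smallest adjusted p was 0.0589 to 0.0788.

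When only the 22690 strongest peaks of each list were kept, as many as LT-HSC KO 1 had, 8 of 24 tested regions were called for MPPs (21.1 percent of all tested) and 1 for LT-HSCs (10.9 percent). Of the 40 calls on the full lists, 3 were also called there. The 8 were 2 at Cebpa (−54.4 and +31.8 kb), 1 at Cebpb (−39.5 kb), 4 at Irf8 (−50.1, −39.1, −34.3 and +56.5 kb) and 1 at Gfi1 (+26.7 kb). The region called for LT-HSCs lay at −20.9 kb from Irf8.

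**Figure D2:**
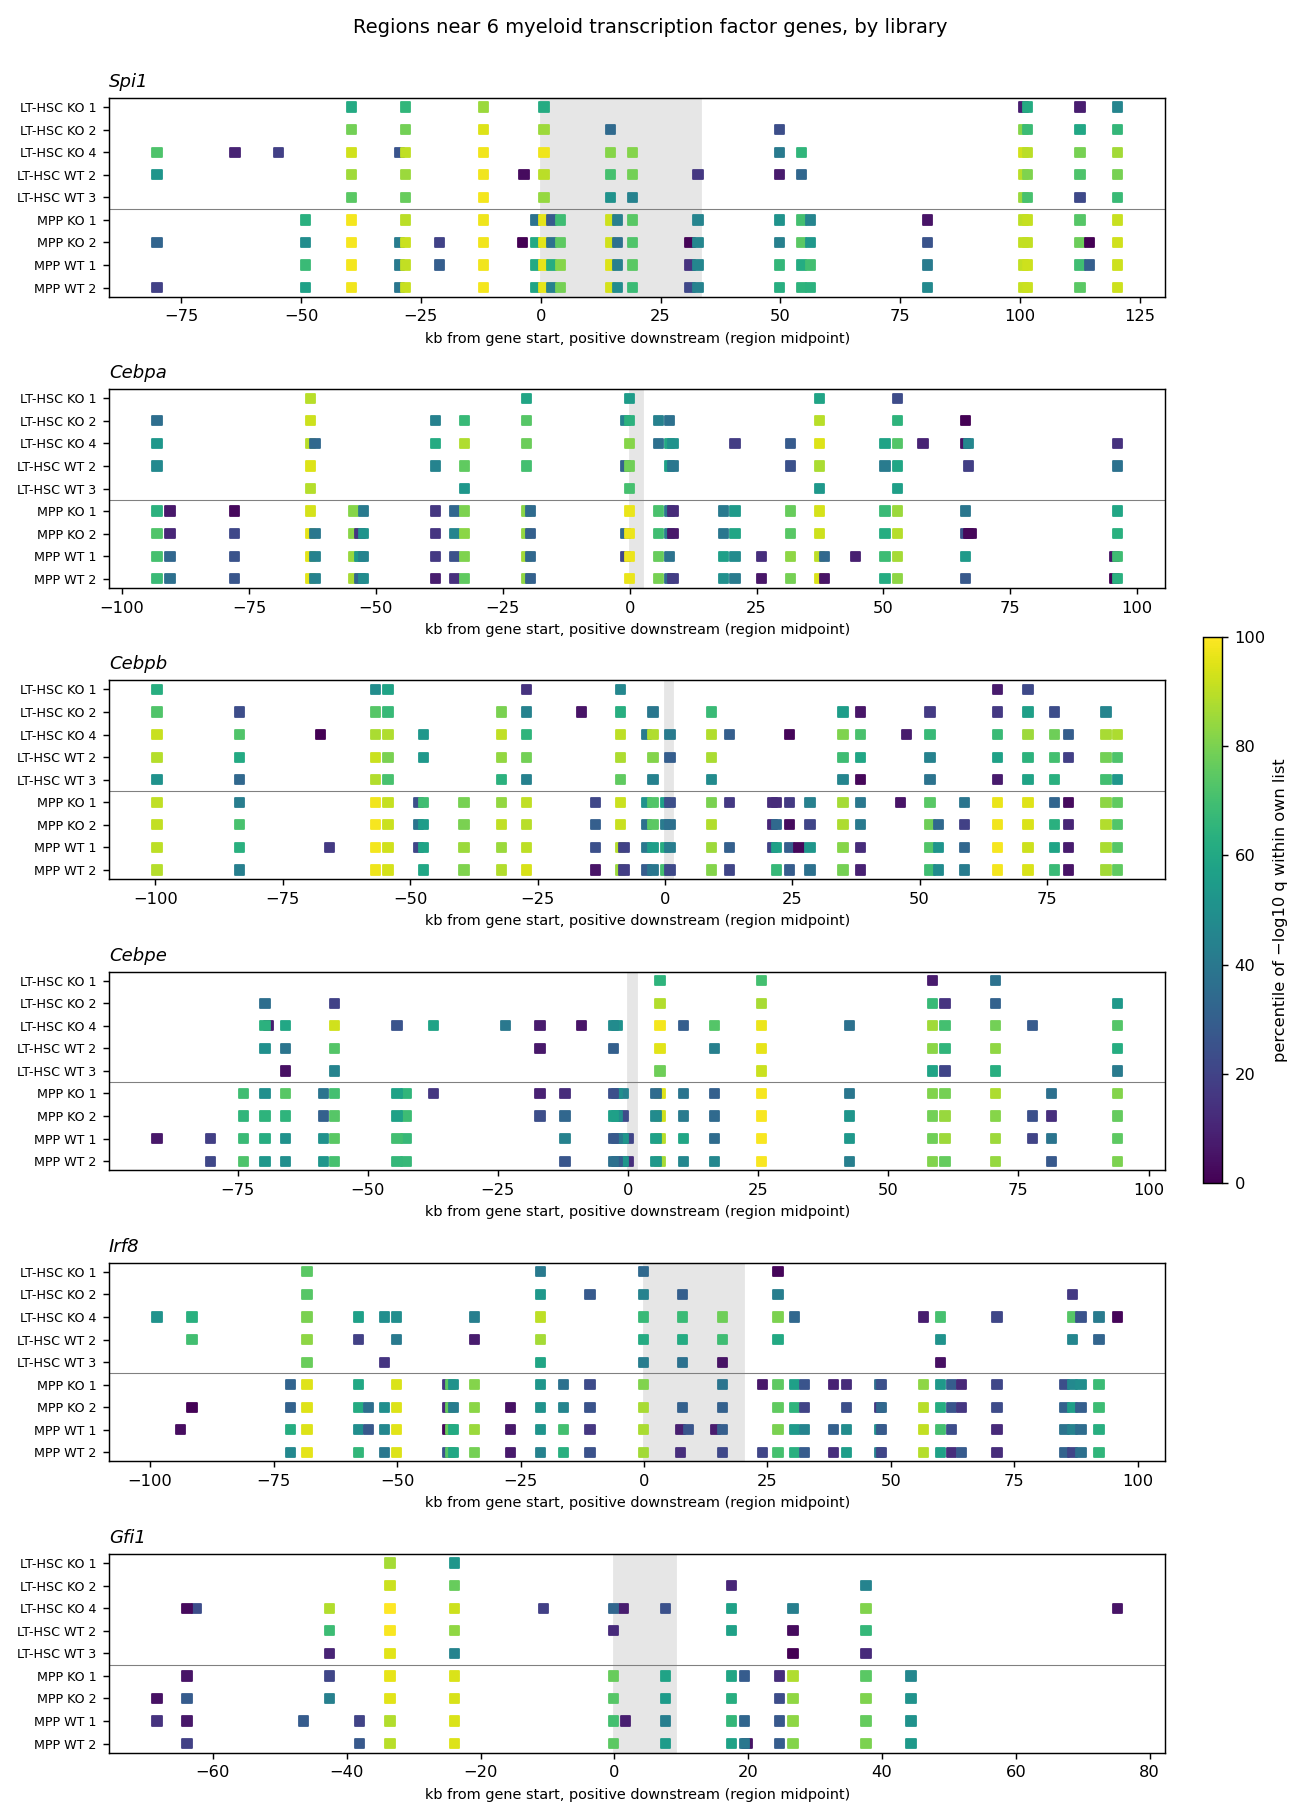
Every region near the 6 genes, by distance from the gene start (kb, x axis) and library (y axis); a square is a peak, its colour the percentile of −log10 q within the library's list, and the grey band is the gene. MPP libraries hold 12 to 35 regions per gene and LT-HSC libraries 2 to 25.

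Rank was compared over the 13908 regions held by all 9 libraries, so that each list entered with the same regions. Each library's −log10 q-values were turned into percentiles over these regions and compared by limma, with genotype as a term. The myeloid loci had 28 such regions. In 11 the MPP libraries ranked higher (39.3%; 14.8 percent of all regions) and in 2 the LT-HSC libraries did (7.14%; 14.7 percent of all). The median difference, LT-HSC minus MPP, was −10.6 percentile points over the 28 and −0.98 over all 13908. Ranking by fold enrichment in place of the q-value gave 9 calls, of which 7 were among the 13, and leaving out 1 library gave 7 (without MPP KO 2) to 14 (without LT-HSC KO 1). The calls were 8 each without MPP KO 1, WT 1 or WT 2. The calls at the Cebpa start, Spi1 −39.6 kb, Cebpb −27.2, +65.2 and +71.3 kb and Irf8 −20.9 kb passed with any 1 library left out, and each of the other 7 was lost without at least 1 library.

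**Figure D3:**
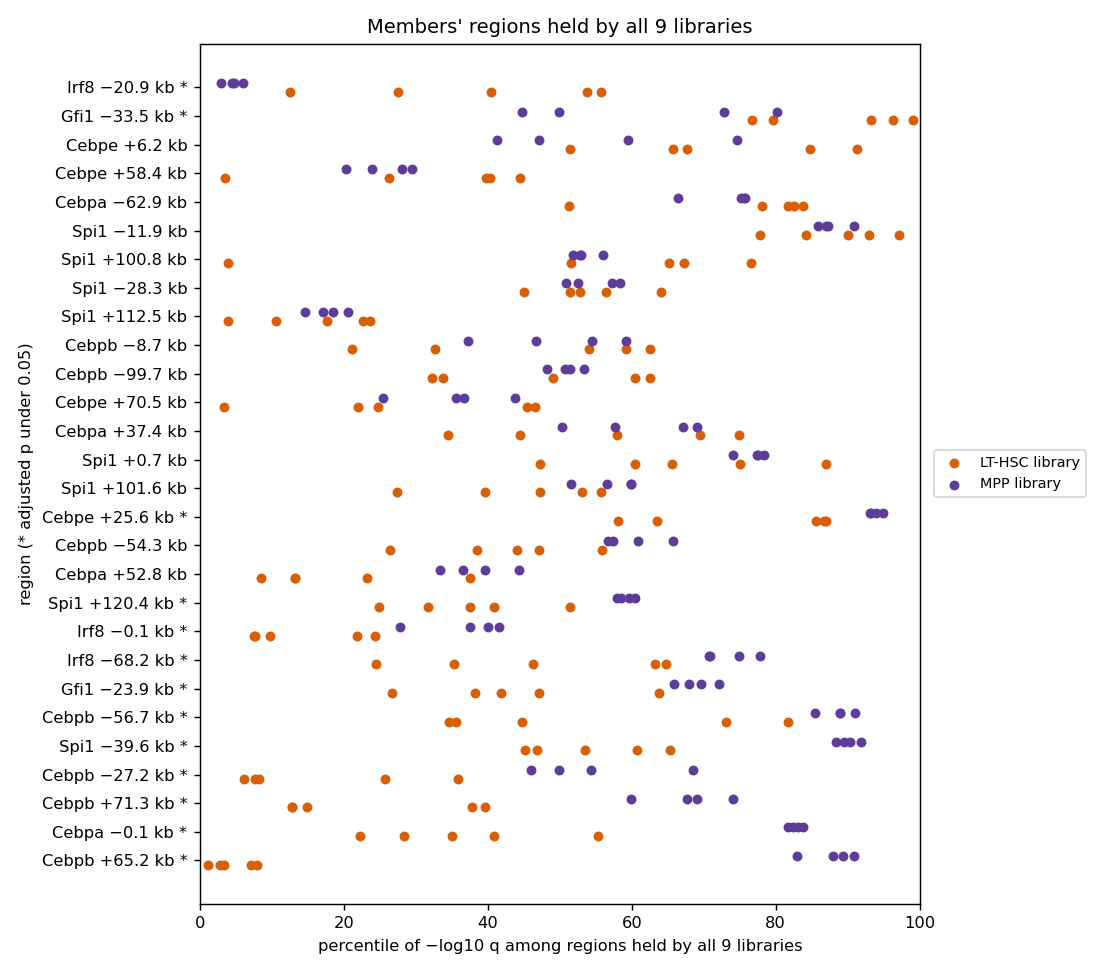
Percentile of −log10 q among regions held by all 9 libraries (x axis) for the 28 such regions near the 6 genes (y axis, distance from gene start); each point is 1 library. Regions are ordered by the fitted difference, from LT-HSC higher at the top to MPP higher at the bottom, where Cebpb +65.2 kb has LT-HSC values of 1.13 to 7.90 and MPP values of 83.0 to 90.9.

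Spi1 (gene 20375, chromosome 2, 91082374 to 91115759, plus strand) encodes PU.1. Its textbook promoter and its upstream regulatory element lie inside the span of the reference gene, which begins at an upstream start. The region at chr2:91096434-91097379 was taken as the inner promoter from general knowledge of the locus, after its values were seen. It had percentiles of 34.01, 81.8, 70.4 and 51.1 in LT-HSC KO 2, KO 4, WT 2 and WT 3, no peak in LT-HSC KO 1, and 92.4, 92.9, 94.5 and 93.7 in MPPs. The regulatory element is known at −14 kb from that promoter, and a region at −13.8 kb from it, chr2:91082838-91083303, was held by all 9 libraries. Its percentiles were 61.2, 85.5, 97.4, 89.8 and 84.2 in LT-HSCs and 95.8, 95.6, 96.1 and 96.1 in MPPs. Its rank among shared regions did not pass the test (−9.36 ± 7.33 points (SE), limma adjusted p = 0.351), and its LT-HSC and MPP values overlapped. By fold enrichment the difference had the other sign and did not pass (+22.6 points, adjusted p = 0.0525).

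Beside the Spi1 regulatory element, regions at −12.2 kb and −10.4 kb from the inner promoter had a peak in each MPP library and none in LT-HSCs. The former, near the known −12 kb element, had MPP percentiles of 28.3, 36.9, 61.8 and 43.5, and the latter 69.1, 75.3, 82.0 and 79.2. The region that the fixed rule placed at the −12 kb element when counted from the reference start lies instead at the end of Slc39a13, a zinc transporter gene, and its rank did not pass the test (+1.39 ± 3.09 points, adjusted p = 0.757). By fold enrichment LT-HSCs ranked higher there (+28.6 points, adjusted p = 0.0287). Further upstream, a region at −39.6 kb inside Rapsn ranked higher in MPPs. Its percentiles among shared regions were 46.8, 45.1, 65.3, 53.6 and 60.7 in LT-HSCs and 90.3, 91.9, 89.5 and 88.4 in MPPs. The groups did not overlap (−35.6 ± 5.58 points, adjusted p = 0.00130). Another, at the shared end of Nr1h3 and Acp2 at +120.4 kb, was also higher in MPPs (−21.2 ± 6.73 points, adjusted p = 0.0370), but this call was lost without any 1 of 7 libraries, all but LT-HSC KO 4 and WT 3 (adjusted p of up to 0.145). Nr1h3 encodes LXRα, a partner of retinoid X receptors.

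Cebpa (gene 12606, chromosome 7, 35119293 to 35121928, plus strand) had an open start in every library. The start region, chr7:35118838-35119604, covers the sequence shown above. Its percentiles within each list were 55.1, 63.9, 81.8, 78.5 and 70.5 in LT-HSCs and 96.7, 97.2, 97.2 and 96.7 in MPPs. Among shared regions the values were 40.9, 22.2, 28.3, 35.0 and 55.3 against 82.5, 83.1, 83.8 and 81.7. All 4 MPP libraries lay above all 5 LT-HSC libraries, by 45.6 points in the fit (LT-HSC minus MPP −45.6 ± 7.28, limma adjusted p = 0.00144, and 0.00126 to 0.0124 with 1 library left out). By fold enrichment the difference was −21.3 points and was not called (adjusted p = 0.0708).

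The Cebpa enhancer known at +37 kb, which is needed for neutrophil production, was open in both cell types. The region at +37.4 kb (chr7:35156366-35157015) had percentiles of 58.5, 89.1, 94.9, 87.3 and 53.2 in LT-HSCs and 93.6, 92.3, 90.1 and 94.2 in MPPs. The shared-region ranks overlapped and did not pass the test (−5.85 ± 8.85 points, adjusted p = 0.641, and +12.7 points, adjusted p = 0.373, by fold enrichment). A second, weaker peak at +38.4 kb was held by MPP WT 1 and WT 2 alone. The strongest Cebpa region held by MPPs alone lay at −54.4 kb (chr7:35064589-35065252), with percentiles of 81.8, 82.4, 84.5 and 86.7. It was among the calls both on the full lists and on lists of equal length. Next to it at −52.5 kb, and at +18.4 kb, weaker regions had MPP percentiles of 40.8 to 51.6 and 39.2 to 56.03 and no LT-HSC peak. At −38.2 kb the ranks ran the other way: LT-HSC KO 2 had a percentile of 43.4, KO 4 of 61.2 and WT 2 of 44.9, and the MPP libraries had 8.0 to 16.8. LT-HSC KO 1 and WT 3 held no peak there, so this region could not enter the fit over all 9 libraries, and it was singled out after its values were seen. In the fit without those 2 lists the difference there was +23.4 ± 4.11 points (SE). That fit leaves out the LT-HSC lists that had no peak and uses the values that singled the region out. It is therefore no separate evidence.

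Cebpb (gene 12608, chromosome 2, 167688915 to 167690432, plus strand) had a start region held by MPPs only. At chr2:167688602-167689370 the MPP percentiles were 56.4, 41.1, 62.5 and 70.0 and no LT-HSC library held a peak, including LT-HSC KO 4 with 71586 peaks. This is the GC-rich promoter shown above. It was called on the full lists (Fisher's exact test, adjusted p = 0.0245) but not on lists of equal length. Nearby regions did have LT-HSC peaks. At +1 kb, within the gene, percentiles were 41.3 in LT-HSC KO 4, 29.7 in LT-HSC WT 2 and 21.9 to 42.1 in MPPs. At −2.4 kb, LT-HSC KO 2, KO 4, WT 2 and WT 3 had 39.8, 87.9, 81.4 and 43.4. The MPP libraries had 73.0, 74.7, 55.7 and 39.4 there.

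The widest difference between cell types at any of the 28 shared regions lay at +65.2 kb from Cebpb, at chr2:167753823-167754466. This region lay inside no protein-coding gene of the reference table. Percentiles among shared regions were 3.29, 1.13, 7.90, 7.06 and 2.78 in LT-HSCs and 83.0, 88.0, 90.9 and 89.4 in MPPs. This was a peak near the bottom of the LT-HSC range and near the top of the MPP range (−83.1 ± 5.73 points, limma adjusted p = 8.44e-05). With 1 library left out the difference was −84.6 to −77.4 points. Its neighbour at +71.3 kb was also higher in MPPs (12.7, 14.8, 37.8, 12.8 and 39.6 against 74.1, 67.7, 59.9 and 69.1; −44.2 ± 8.26, adjusted p = 0.00336). On the other side, regions at the ends of Tmem189 (−27.2 kb; −36.3 ± 6.41, adjusted p = 0.00251) and Ube2v1 (−56.7 kb; −32.6 ± 8.0, adjusted p = 0.0122) ranked higher in MPPs. The latter call was lost without MPP KO 1 or MPP KO 2 (adjusted p of up to 0.0685). By fold enrichment the Tmem189 difference was −17.0 points (adjusted p = 0.0190). The region at −39.5 kb inside Tmem189 was held by MPPs alone at percentiles of 79.7, 79.9, 84.8 and 80.5, on full lists and on lists of equal length.

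Cebpe (gene 110794, chromosome 14, 54710363 to 54712174, minus strand) had only weak peaks at its start. A region over the start was held by MPP WT 1 and WT 2 alone, at percentiles of 20.6 and 13.4, and a region at −0.86 kb was held by MPPs alone, at 43.5, 22.9, 52.7 and 52.7. The enhancer known at +6 kb, which controls Cebpe in granulocytes and their precursors, was in contrast held by all 9 libraries. At +6.2 kb (chr14:54705677-54706334) percentiles were 64.7, 88.4, 98.3, 95.6 and 78.0 in LT-HSCs and 95.2, 92.7, 89.1 and 86.6 in MPPs. By shared-region rank the cell types overlapped (+15.8 ± 9.46 points, adjusted p = 0.224). A flanking region at +5.4 kb was held by MPPs alone (34.6, 47.8, 56.9 and 53.3).

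In MPPs the strongest region in the Cebpe window was at the end of Acin1 and 1700123O20Rik, at +25.6 kb. By q-value it ranked higher in MPPs (58.1, 63.5, 85.6, 86.7 and 87.0 against 93.3, 94.9, 93.2 and 93.9; −16.7 ± 5.64 points, adjusted p = 0.0461). By fold enrichment the difference turned to +14.6 points (adjusted p = 0.184), and the call was lost without any 1 library other than LT-HSC KO 4 (adjusted p of 0.0125 to 0.161 over the 9 fits). Upstream, the regions at −42.6 kb inside Slc7a8, an amino acid transporter gene, and at −73.9 kb inside Rnf212b were held by MPPs alone, at percentiles of 65.5 to 68.5 and 65.5 to 72.0.

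Irf8 (gene 15900, chromosome 8, 120736358 to 120756694, plus strand) showed the most regions called for MPPs by presence, 11. It also had the most regions tested, 26, and its share called (42.3%) was near that of all 6 genes (43.0%). Over all tested regions 31.9 percent were called for MPPs. The Irf8 start region, chr8:120735937-120736584, was held by all 9 libraries. Within-list percentiles were 33.8, 43.9, 67.4, 61.0 and 42.0 in LT-HSCs and 81.1, 86.8, 87.2 and 86.0 in MPPs. Among shared regions the MPP libraries also ranked higher (21.8, 7.43, 7.61, 9.72 and 24.3 against 27.8, 37.5, 41.5 and 39.999; −21.9 ± 5.59 points, adjusted p = 0.0148, and 0.0663 without MPP KO 2, the only library whose removal ended the call). By fold enrichment the difference was −33.7 points (adjusted p = 0.00474).

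Every MPP library had a peak within 2 kb of each of the 4 Irf8 enhancer positions sought, and at most 2 LT-HSC libraries did. The −50 kb enhancer, bound by PU.1 in myeloid cells, had a region at −50.1 kb (chr8:120685903-120686563) with MPP percentiles of 94.3, 94.8, 95.5 and 94.8. In LT-HSCs it was held by KO 4 (49.1) and WT 2 (40.9) only. The +56 kb enhancer, active in monocytes and their progenitors, had a region at +56.5 kb (chr8:120792647-120793153) with MPP percentiles of 83.0, 89.3, 90.7 and 88.8 and a peak in LT-HSC KO 4 alone (7.9). Fisher's exact test on full lists did not call either (adjusted p = 0.202 and 0.0786). On lists of equal length both were held by each MPP library and by none of the LT-HSC libraries (adjusted p = 0.0248). The +32 kb and +41 kb enhancers, known from dendritic cells, had regions at +32.5 kb (25.8, 20.2, 44.7 and 28.5) and +41 kb (12.2, 24.1, 48.4 and 55.4) in MPPs and none in LT-HSCs. A region at +30.5 kb, also within 2 kb of the +32 kb position, was held by all MPP libraries (56.4, 64.9, 54.0 and 63.3) and by LT-HSC KO 4 (33.4).

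The Irf8 locus also held a region that went the other way. At −20.9 kb (chr8:120715179-120715717) percentiles among shared regions were 27.5, 12.5, 53.8, 55.7 and 40.5 in LT-HSCs and 4.47, 2.94, 5.91 and 4.77 in MPPs. Every LT-HSC library lay above every MPP library (+34.5 ± 8.07 points, limma adjusted p = 0.00986, and 0.00245 to 0.0340 with 1 library left out). On lists of equal length all 5 LT-HSC libraries and no MPP library held it (adjusted p = 0.0248). Within the gene, a region at +7.8 kb had a peak in LT-HSC KO 2, KO 4, WT 2 and WT 3 (30.01, 68.0, 61.2 and 37.1) and in MPP KO 2 alone (30.5), and was singled out after its values were seen. At −68.2 kb a region at the shared end of Emc8 and Cox4i1 was higher in MPPs (−25.9 ± 8.74 points, adjusted p = 0.0462). Only without LT-HSC KO 1 or WT 3 did that call hold (adjusted p of 0.0174 to 0.158 over the 9 fits), and by fold enrichment it was lost (adjusted p = 0.158).

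Gfi1 (gene 14581, chromosome 5, 107716655 to 107725805, minus strand) had its strongest regions upstream, inside Evi5. The start region, chr5:107725307-107726481, had MPP percentiles of 76.8, 73.7, 70.2 and 74.6 and was held in LT-HSCs by KO 4 (32.4) and WT 2 (11.8) only. Fisher's exact test did not call it (adjusted p = 0.202). Regions at +44.3 kb (46.4 to 53.7) and +24.7 kb (12.7 to 28.9) were held by MPPs alone, and that at +26.7 kb was called on lists of equal length.

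The Gfi1 region at −33.5 kb, chr5:107758986-107759684, was the strongest of the Gfi1 window in every LT-HSC library. Its within-list percentiles were 86.4, 91.8, 99.8, 98.9 and 95.7 in LT-HSCs and 96.3, 95.3, 88.3 and 89.4 in MPPs. Among shared regions the values were 79.7, 76.8, 99.1, 96.3 and 93.2 against 80.1, 72.8, 44.8 and 49.9. LT-HSCs ranked higher (+26.3 ± 7.74 points, adjusted p = 0.0272, but not without LT-HSC WT 2, LT-HSC WT 3, MPP WT 1 or MPP WT 2, where adjusted p was up to 0.0883). MPP KO 1 lay within the LT-HSC range, and MPP KO 2 and both MPP WT libraries lay below it. By fold enrichment the difference was +15.3 points and was not called (adjusted p = 0.0796). A neighbour at −23.9 kb ran the other way (38.2, 41.9, 63.8, 47.0 and 26.6 against 69.6, 65.9, 68.0 and 72.2; −25.9 ± 7.89, adjusted p = 0.0312, and up to 0.0930 without LT-HSC KO 2, LT-HSC WT 3 or any MPP library, which ended the call, and 0.0519 by fold enrichment). At −42.6 kb, singled out after its values were seen, LT-HSC KO 4, WT 2 and WT 3 had percentiles of 88.4, 68.6 and 9.99, MPP KO 1 and KO 2 had 20.9 and 43.3, and no MPP WT library held a peak.

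**Figure D4:**
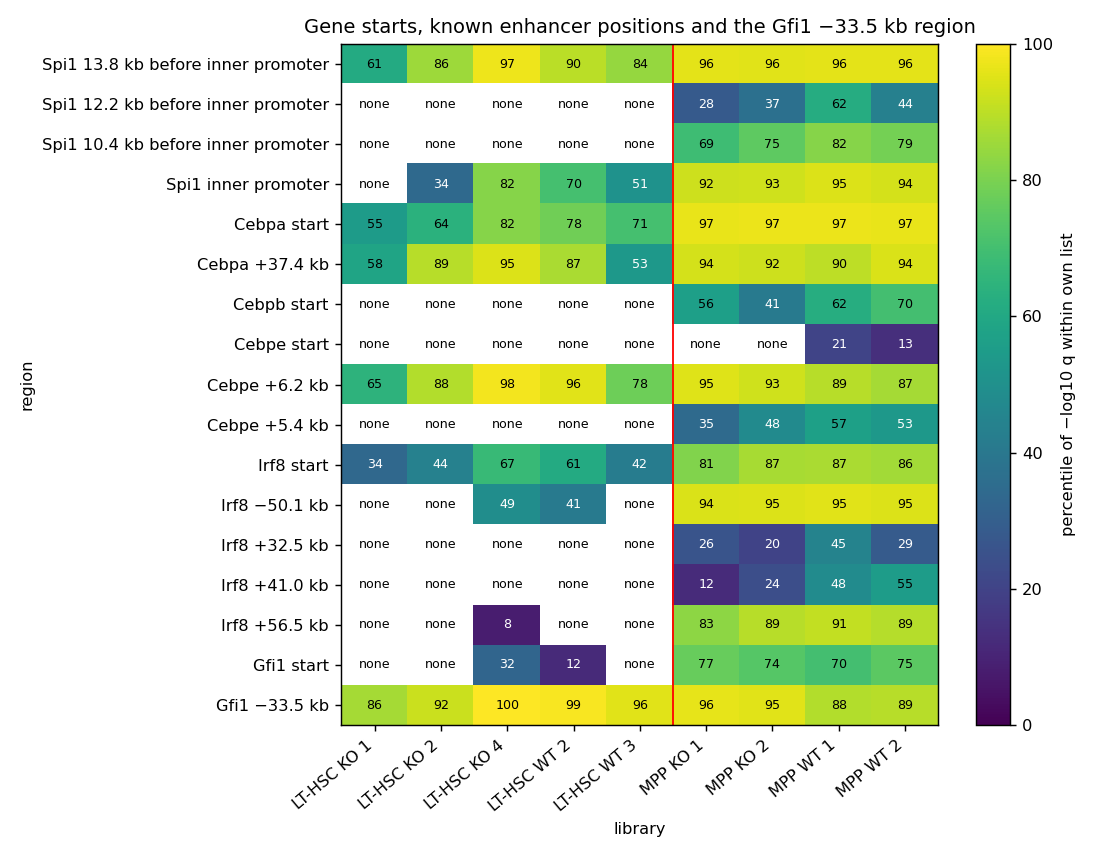
Percentile of −log10 q within each library's own list (numbers and colour) at gene starts, at regions nearest to known enhancer positions and at the Gfi1 −33.5 kb region (y axis), in each of the 9 libraries (x axis); white cells marked none had no peak. The red line parts LT-HSC from MPP libraries: regions at Spi1 −13.8 kb, Cebpa +37.4 kb and Cebpe +6.2 kb are held by all 9 libraries, while the Irf8 enhancers reach 94.3 to 95.5 at −50.1 kb in MPPs and at most 49.1 in LT-HSCs.

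The genotype comparison asks whether loss of RXRα and RXRβ went with a change at these loci. In MPPs, 3 of the 129 myeloid regions held by all 4 libraries differed by rank among the 64003 such regions (limma). The KO libraries ranked higher at 2 (1.55%; 0.784 percent of all regions) and the WT libraries at 1 (0.775%; 0.67 percent of all). These shares are close to the background. The median difference, KO minus WT, was −0.29 points over the 129 and 0.04 over all 64003. At unadjusted p under 0.05 the KO was higher at 9 (6.98%; 8.62 percent of all) and the WT at 14 (10.9%; 8.87 percent of all). Of these 14, 5 were at Spi1 (of 20 regions tested there) and 5 at Irf8 (of 27). Of the 9 higher in KO, 4 were at Cebpb (of 28). A permutation test of 2 libraries against 2 cannot go below p = 0.333, so these calls rest on the spread that limma pools over regions.

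The Gfi1 −33.5 kb region was the clearest of the 3. Its percentiles among MPP regions were 95.6 and 93.9 in KO and 84.8 and 86.9 in WT (+8.87 ± 1.09 points (SE), limma adjusted p = 0.00453, both KO above both WT). With 1 library left out the adjusted p ranged from 3.77e-05 to 0.0226. At the Cebpe +6.2 kb enhancer the values were 94.3 and 90.3 in KO and 85.8 and 83.4 in WT (+7.69 ± 1.39, adjusted p = 0.0236). Without MPP KO 1 the adjusted p there was 0.0573. The remaining region, at +21.9 kb from Cebpb (chr2:167710599-167710942), was held by MPPs alone and was higher in WT: 5.7 and 16.5 in KO against 44.0 and 59.1 in WT (−40.4 ± 9.23, adjusted p = 0.0460). That call was lost without MPP KO 1, WT 1 or WT 2 (adjusted p of up to 0.182). When peaks were ranked by fold enrichment, 0 of the 129 regions and 0 of all 64003 passed (limma; 16 of the 129 had unadjusted p under 0.05).

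Among MPP regions near the threshold, the Irf8 +41 kb enhancer had 5.6 and 9.0 in KO and 33.1 and 45.0 in WT (−31.8 ± 8.22, adjusted p = 0.0679). The Irf8 −16.4 kb region had 26.1 and 29.1 against 61.1 and 54.3 (−30.1 ± 8.45, adjusted p = 0.0855). A Cebpb region at −2.4 kb had 67.8 and 66.7 against 42.3 and 26.5 (+32.9 ± 7.86, adjusted p = 0.0532). At Cebpb +34.98 kb KO had 84.0 and 83.6 and WT 76.3 and 74.1 (+8.59 ± 2.06, adjusted p = 0.0539), and at Cebpb −8.7 kb KO had 90.3 and 88.8 and WT 85.6 and 81.3 (+6.09 ± 1.52, adjusted p = 0.0607). None of these 5 passed. KO and WT values did not overlap in any of them, but regions near the threshold were picked for differing. Full separation of 2 libraries against 2 gives p = 0.333 by a permutation test. The share of all regions without overlap was not counted. At the Cebpa start KO minus WT was 0.01 points (adjusted p = 0.995), and at the Irf8 −50.1 kb enhancer it was −0.66 points (adjusted p = 0.721).

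**Figure D5:**
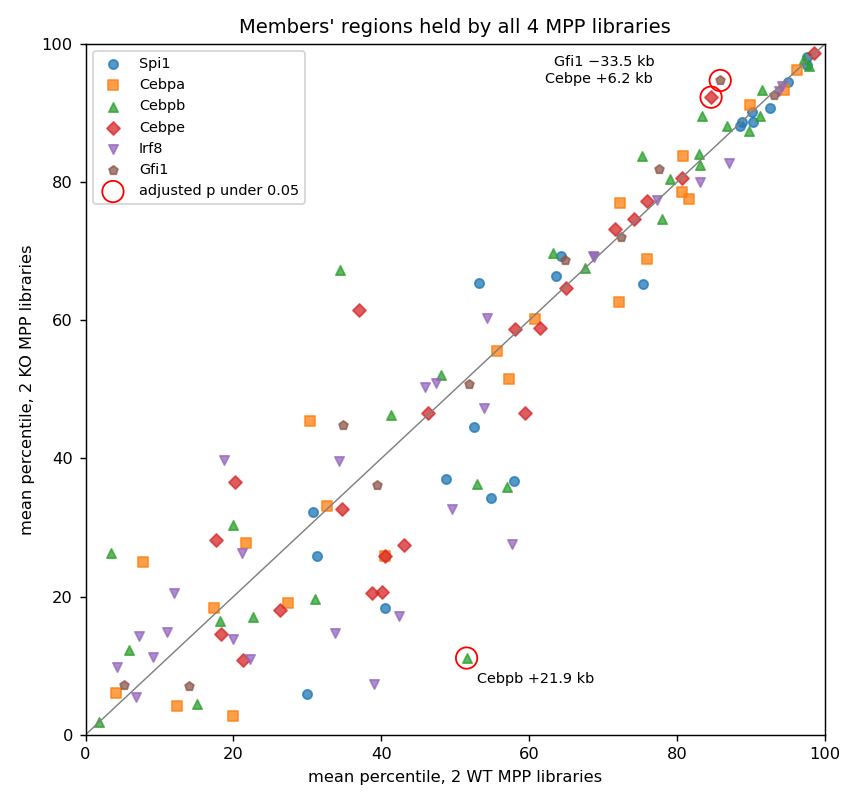
Mean percentile of −log10 q among the 64003 regions held by all 4 MPP libraries, in the 2 WT (x axis) and 2 KO libraries (y axis), for the 129 regions near the 6 genes; the line marks equal means and red rings mark limma adjusted p under 0.05. The 3 ringed regions are Gfi1 −33.5 kb and Cebpe +6.2 kb above the line and Cebpb +21.9 kb below it.

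In LT-HSCs 0 of 28 myeloid regions held by all 5 libraries differed by genotype in limma, and 0 percent of the 14498 such regions were called in either direction. At unadjusted p under 0.05, WT was higher at 4 (14.3%; 5.69 percent of all) and KO at 0 (7.92 percent of all). The median difference was −9.17 points over the 28 and −0.89 over all. LT-HSC KO 4, with the longest list, decided this comparison: without it 5 of 28 were called, all higher in WT (13.8 percent of all regions were then called for WT and 14.6 percent for KO). They were the Gfi1 −33.5 kb region, the end of Slc39a13 near Spi1, Cebpb −56.7 kb and −8.7 kb, and Cebpe +25.6 kb. At Gfi1 −33.5 kb the remaining libraries had 80.0 and 77.1 in KO and 96.4 and 93.5 in WT (−16.4 ± 3.22, adjusted p = 0.0105), while KO 4 had 99.1. With KO 4 the difference was −9.56 (adjusted p = 0.432).

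Presence by genotype, tested with an exact test within cell types, could be tested at 4 myeloid regions and called 0 (0 percent of 1565 tested). At unadjusted p under 0.05 it gave 0 of the 4, where 2.49 percent of the 1565 passed. Whether the genotype difference itself differed between the cell types was tested by an interaction term over 13908 regions, and 0 passed in limma (1217 at unadjusted p under 0.05). The smallest p among the 28 myeloid regions had an adjusted p of 0.561 (3 at unadjusted p under 0.05). Among these 3 was Gfi1 −33.5 kb (−38.7 ± 10.4 points, LT-HSC minus MPP), and the others were Cebpb −56.7 kb and −8.7 kb.

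For genes that work with these factors only counts were taken. Of 16 partners and antagonists, such as Cebpd, Klf4, Irf4, Runx1 and Gata2, 15 were examined, and Gata1 on chromosome X was not analysed here. Of their 212 tested regions, 77 (36.3%) were called for MPPs by presence and 0 for LT-HSCs, and 14 of the 15 genes had at least 1 call, Id2 being the exception. Of 229 tested regions of 16 target genes, such as Mpo, Elane, Csf1r and Itgam, 87 (38.0%) were called for MPPs and 0 for LT-HSCs, in 15 genes, with Csf2ra as the exception. The 31.9 percent of all tested regions is the background for both. Runx1 had 16 calls of 29 tested regions and Itgam 12 of 24. By genotype in MPPs, 6 of 283 regions of the partners were higher in KO and 1 in WT, and of 304 regions of the targets 2 were higher in KO and 2 in WT. Over all regions 0.784 percent were higher in KO and 0.67 percent in WT. A region in the windows of 2 genes counts for each. The window of Cebpg, a partner, overlaps that of Cebpa, and its 7 calls are those already given for Cebpa. The partner share is therefore not independent of the members.

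The genes whose share of regions held was most like that of each member over the 9 libraries were named from at least 8 regions per gene. The measure is the summed absolute difference in percentage points, and smaller is more alike. Spi1 was nearest to Mslnl and Msln (22.3 each) and Gusb (27.0), where the median gene lay at 94.6. Cebpa was nearest to Ciita (15.2), Gm45521 (16.4) and Clec16a (21.45), and Cebpb to Usp4 (24.8), Irf3 (25.9) and 1700102P08Rik (25.96). Cebpe was nearest to the neighbours Oxt and Avp (16.8 each) and Ubox5 (18.7), and Irf8 to Perp (15.0), Sgpl1 (16.5) and Brd3 (18.2). Gfi1 had Myo1d (27.9), Mettl7a3 (30.5) and B4galnt2 (30.5), where the median gene lay at 117.2. Differences in list length enter this measure too.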

How the data were processed

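Paired reads of 50 nt were sequenced, per the labels, and each library has its own deposited list of peaks. The build was mm10, and the tools named, per the submitters' processing notes, were MACS2 2.1.1, HOMER 4.10.3, edgeR 3.20.9, SAMtools 0.1.18, cutadapt 1.7, DiffBind 2.6.6, Bowtie2 and FastQC, without roles. Each deposited peak has a score for display, its enrichment over background (a fold, or ratio), −log10 p-values and q-values, and other fields (start, end, summit). The sources used here do not give the handling of Tn5 offsets or duplicates. List length can follow depth, which is unknown here, and it bears on presence and percentiles.

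Peaks were merged across libraries where they overlapped by at least 1 bp. A region's value in a library is that of its strongest peak by −log10 q. For presence, cell types were compared by Fisher's exact test (two-sided) where 3 to 6 libraries held a region, and genotypes by an exact test stratified by cell type. Ranks were tested with limma 3.58.1 (R 4.3.3; trend on the mean) over regions held by all libraries compared, with a spread shared across regions. p-values were adjusted by Benjamini-Hochberg over all regions tested, at a threshold of 0.05, and the tests were tested on simulated data. Python 3.11.15, pandas 2.3.3, numpy 2.4.6, scipy 1.17.1 and matplotlib 3.10.9 were used. Nothing says that libraries of a group came from separate animals, so p-values reflect the spread among these libraries alone, and that spread may be technical. Between libraries of the same number in different groups, correlations of deviations from group means were −0.01 to 0.04. Such values cannot show whether those libraries were paired.

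Gene ends, strands and promoters came from RefSeq tables of GRCm38.p6. Those tables gave no strand for Spi1 and Cebpe, which was set from general knowledge. Rules named the region nearest the start (within 1 kb), those within 2 kb of a known enhancer and up to 3 called by presence. They also named that of smallest genotype p in each cell type and that of largest called rank difference in each direction. Others are named where a count is broken down, or were picked after their values were seen. Among the latter are Cebpe −0.86 kb and, at Cebpb, −8.7, −2.4, +1 and +34.98 kb. The members, lists and tests were chosen with earlier results of these data known. Alternatives were lists of equal length, −log10 q of at least 5, merging by summits within 150 bp, a 50 kb window, ranking by fold enrichment, a replicate block, and leaving out each library or the 2 shortest LT-HSC lists.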

Additional observations from a re-analysis of the deposited data

Results flagged for a closer look

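In 44 groups of 4 or 5 libraries, 4 values lay far from the others of their group by Dixon's criterion. Each group was the libraries of 1 cell type, KO and WT together. Chance gives about 1 in 20 for continuous values, but that rate does not hold for counts of regions, which can tie. MPP KO 1 held 23 Cebpa regions, and the other MPP libraries 28 or 29. MPP WT 1 held 26 Cebpe regions, and each of the other MPP libraries 24. The region chr7:35055836-35056886 at the end of Cebpg and Gm45095, at −62.9 kb from Cebpa, gave the remaining values. Its percentile among shared regions was 51.3 in LT-HSC KO 4, where the other LT-HSC libraries had 78.0 to 83.8, and 66.4 in MPP KO 1, where the other MPP libraries had 75.2 to 75.7. Neither genotype nor cell type passed the test at this region (limma adjusted p = 0.590 in MPPs, 0.577 in LT-HSCs and 0.745 for cell type).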

How the results depend on the processing

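Presence calls by cell type numbered 40 on the full lists, 38 at −log10 q of at least 5 (37 shared), 40 by summits, 30 within 50 kb, 9 on lists of equal length and 0 to 44 with 1 library left out. Without the 2 shortest LT-HSC lists the same 40 were called. Rank calls by cell type numbered 13, with 8 within 50 kb, where fewer regions were tested, 7 to 14 with 1 library left out, 15 without the 2 shortest LT-HSC lists (10 of the 13 among them; 3 higher in LT-HSCs), and 7 with the replicate block, none of them higher in LT-HSCs. Rank calls by genotype in MPPs numbered 3, with 4 at the stricter q-value, 1 to 5 with 1 library left out (1 without MPP KO 1, 5 without MPP KO 2), 0 by fold enrichment and 8 with the replicate block. In LT-HSCs they numbered 0, and 0 to 5 with 1 library left out. Presence calls by genotype were 0 under each alternative that could be fitted; without the 2 shortest LT-HSC lists no region could be tested. The Cebpe +25.6 kb region reversed by fold enrichment, to +14.6 points; the cause was not tested. Over the named regions, 988 alternatives of 98 results kept their side of the threshold in 825, lost a call in 152, gained a call in 10 and reversed a called direction in 1. Among the 825, 783 kept their direction and 42 changed sign without a call under either setting, 26 of them genotype differences in MPPs and 8 under fold enrichment. Whether library numbers pair the libraries is not known here, so the block is given for its counts only. In a rank fit without 1 of 2 libraries of a group, the lone library is assumed to vary like the others. Unknown depth limits every comparison of presence, and 2 libraries per group limit those of genotype.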
